A study of Mus musculus with 30 samples.

Results

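The 10 adipocyte genes Adipoq, Plin1, Lep, Fabp4, Cidec, Lipe, Pparg, Pnpla2, Cd36 and Retn were followed across the 30 libraries, as the entries that carry these symbols among the 22609 genes of each count table. All 10 were found in every table. The series compared prolactin (PRL, 1 µg) with vehicle (Veh, PBS), both given by injection into the hind paw of C57BL/6J mice aged 10 to 12 weeks, in hind paw tissue and dorsal root ganglion (DRG), the ganglion that holds the cell bodies of sensory neurons. There were 10 groups of 3 libraries. In libraries depleted of ribosomal RNA these were female paw PRL and Veh, male paw PRL and Veh, female DRG PRL and Veh, and male DRG PRL and Veh. The remaining groups, named PRL_Sh, were female paw and female DRG after prolactin, made with an mRNA kit. The meaning of Sh is not given in the labels, nor whether a library followed a single injection or daily injections for 12 days, which the labels' protocol lists side by side. Whether libraries of a group came from separate animals is also not given, so p-values measure the spread between these libraries, which may be technical.

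Adipocytes store triglyceride in a lipid droplet and release it as fatty acid. Pparg encodes the nuclear receptor that drives fat cell differentiation. Plin1 coats the droplet and holds back lipolysis, Cidec fuses small droplets into large ones, and Pnpla2 (ATGL) and Lipe (HSL) encode the lipases that remove fatty acids in turn. Cd36 takes up fatty acids and Fabp4 carries them inside the cell. Adipoq, Lep and, in mice, Retn encode the secreted hormones adiponectin, leptin and resistin. Plin1, Cidec, Adipoq and Lep are the more fat-cell-restricted members, while Cd36 and Fabp4 are also made by endothelium and macrophages, Pnpla2 and Lipe by muscle among many tissues, and Pparg by macrophages and sebaceous glands.

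The 4 promoters printed here belong to the genes with the most negative log2 changes in male paw after prolactin. Among comparisons of PRL with Veh within a sex, members passed the test only there, and Lep was not among them. Each window runs from 250 bases before to 50 after the RefSeq start (GRCm38.p6), 5′ to 3′ on the gene's strand. Of the 10 genes, 9 matched a promoter in the RefSeq table. Capitals mark matches, on either strand, to TTNNGCAA, a loose form of the element bound by C/EBP factors, which include the adipogenic regulator C/EBP alpha. Those letters occur in 10.8% of the 32851 promoters of the table.
Adipoq, chr16:23146286-23146585, plus strand: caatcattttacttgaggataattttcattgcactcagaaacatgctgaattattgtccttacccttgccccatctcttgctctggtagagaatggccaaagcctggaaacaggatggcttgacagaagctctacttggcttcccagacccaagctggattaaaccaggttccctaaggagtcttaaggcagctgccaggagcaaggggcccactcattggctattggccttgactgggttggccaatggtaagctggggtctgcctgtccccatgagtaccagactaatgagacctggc
Plin1, chr7:79732727-79733026, minus strand: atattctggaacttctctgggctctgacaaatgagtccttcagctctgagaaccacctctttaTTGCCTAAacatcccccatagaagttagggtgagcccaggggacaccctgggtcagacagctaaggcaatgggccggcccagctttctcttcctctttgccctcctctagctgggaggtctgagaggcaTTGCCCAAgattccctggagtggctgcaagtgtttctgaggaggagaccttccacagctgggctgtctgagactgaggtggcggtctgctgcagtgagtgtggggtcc
Retn, chr8:3655520-3655819, plus strand: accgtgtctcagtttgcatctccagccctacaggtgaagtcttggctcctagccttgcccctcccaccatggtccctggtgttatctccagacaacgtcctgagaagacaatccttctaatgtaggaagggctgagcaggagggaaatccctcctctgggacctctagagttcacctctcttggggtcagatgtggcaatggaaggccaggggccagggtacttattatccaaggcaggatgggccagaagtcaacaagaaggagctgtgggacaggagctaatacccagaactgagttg
Lep, chr6:29059971-29060270, plus strand: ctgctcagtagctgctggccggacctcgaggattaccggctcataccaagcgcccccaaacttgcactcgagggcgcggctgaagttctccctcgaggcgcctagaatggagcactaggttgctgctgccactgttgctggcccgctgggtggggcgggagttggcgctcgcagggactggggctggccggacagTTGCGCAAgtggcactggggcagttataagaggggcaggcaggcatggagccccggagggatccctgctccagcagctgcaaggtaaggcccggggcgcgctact
Plin1 held 2 matches, starting at positions -187 and -58 relative to the start, and Lep held 1 at -55. The Lep match is the palindrome TTGCGCAA, which overlaps the looser motif by construction and occurs in 0.183% of promoters. The windows of Adipoq and Retn held neither these letters nor AGGTCA, the core of nuclear receptor elements (16.3% of promoters), nor TATAAA, the TATA box (13.6%). Among the members not printed, TTNNGCAA was found in windows of Cidec and Pparg, AGGTCA in windows of Cd36 and Pparg, and TATAAA in a window of Pparg. These are descriptions of letters in a window and not of bound sites.

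Reads assigned to genes numbered 6866545 to 13470783 per library in rRNA-depleted paw, 8986530 to 13327072 in rRNA-depleted DRG, and 21795035 to 26515208 with the mRNA kit. The labels name 18 female and 12 male libraries, whereas the text of the series gives the reverse. Xist stood at 195 to 3794 CPM in the libraries labelled female and at 0.334 to 6.39 CPM in those labelled male, and Ddx3y, a Y-linked gene, at 0 to 0.163 CPM in those labelled female and 83.7 to 178 CPM in those labelled male. Tissue labels were checked with defining markers. The 11 keratinocyte genes summed to 47919 to 95226 CPM in paw libraries and 11.4 to 127 CPM in DRG libraries, and 12 sensory neuron genes summed to 37 to 102 CPM in paw and 7545 to 10975 CPM in DRG. A list of 18 skeletal muscle genes summed to 2750 to 59163 CPM among the female PRL paws alone, so muscle in the sample varied within a group.

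In vehicle paws the members spanned a wide range of levels. Per kilobase of transcript, in normalised CPM (read counts scaled to library size, with TMM factors over all 30 libraries), Fabp4 was first at 58.7 ± 6.53, followed by Pnpla2 at 48.3 ± 3.49 and Cd36 at 43.2 ± 8.62 CPM per kb (SD, n = 6 libraries, both sexes). The library ranges of these 3 neighbours overlapped. Adipoq at 12.6 ± 3.49 and Lipe at 10.8 ± 2.19 CPM per kb came next and did not separate from each other, but both stayed below every value of the first 3. Pparg (4.98 ± 0.749), Cidec (4.59 ± 1.5), Plin1 (4.53 ± 1.05) and Retn (3.65 ± 0.922 CPM per kb) overlapped throughout. Lep, at 0.461 ± 0.254 CPM per kb, lay below all others, on 7 to 32 reads per library in female and 12 to 21 in male vehicle paws. In vehicle DRG the order was Fabp4 (32.2 ± 29.3), Pnpla2 (26.3 ± 4.47), Cd36 (8.3 ± 6.23), Adipoq (7.79 ± 7.83), Lipe (4.24 ± 2.2), Cidec (3.93 ± 4.23), Retn (2.91 ± 3.04), Plin1 (2.29 ± 2.14), Pparg (1.87 ± 0.573) and Lep (0.0988 ± 0.064 CPM per kb), with neighbours overlapping except Pnpla2 and Cd36, and Pparg and Lep. The highest DRG value of each member except Lep came from a single library, female DRG Veh replicate 1. In bulk tissue, fewer fat cells and less RNA per fat cell cannot be told apart.

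**Figure D1:**
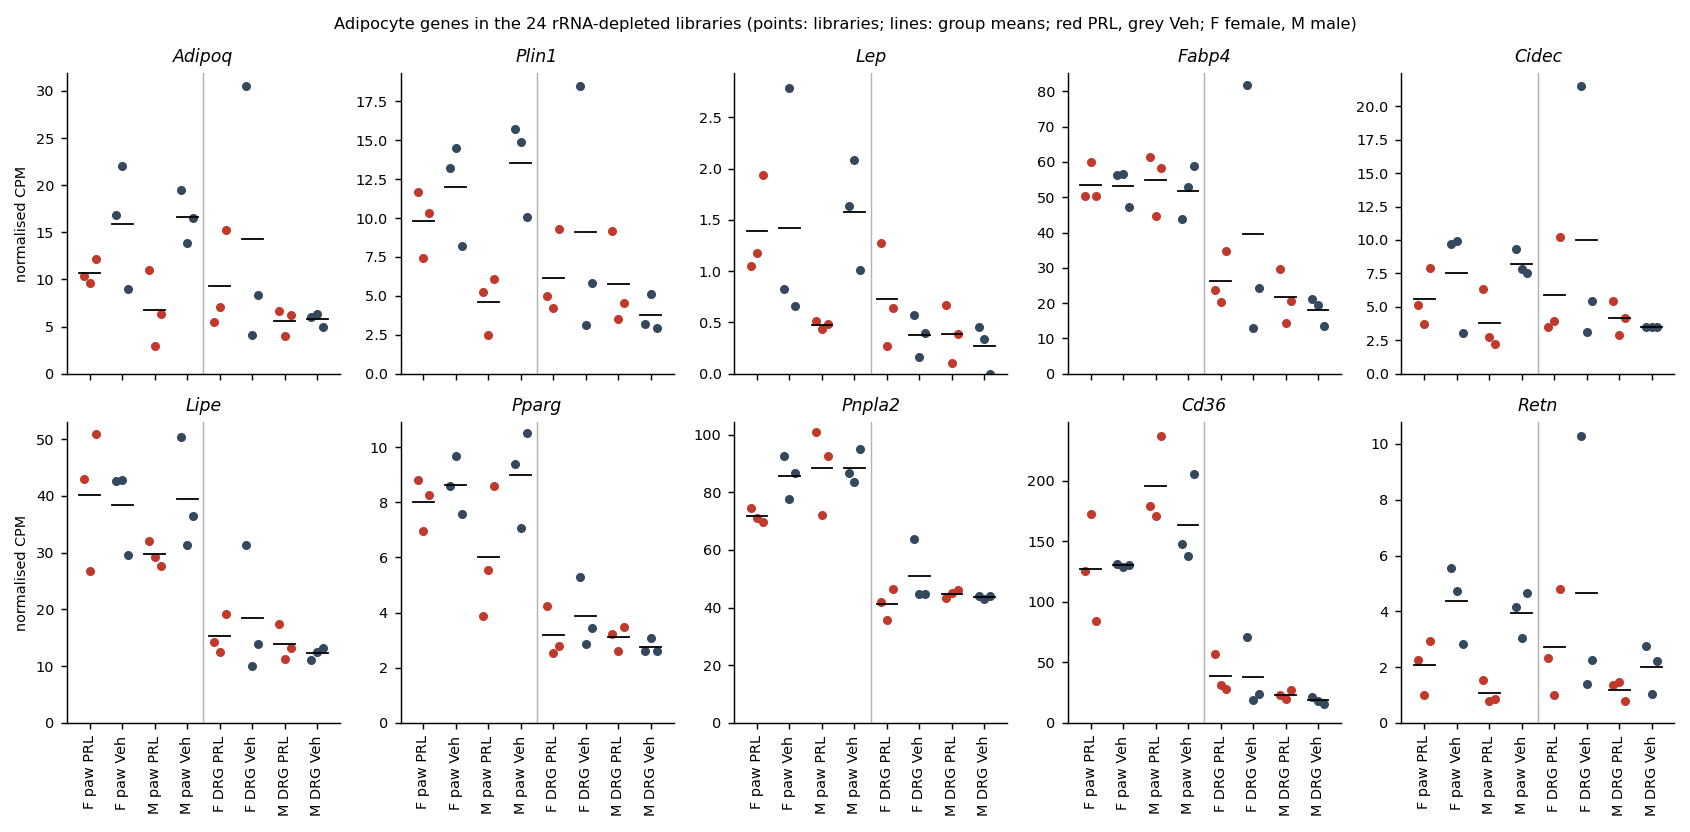
Normalised CPM (y axes, linear from 0) of each adipocyte gene in the 8 rRNA-depleted groups (x axes; F female, M male; red PRL, grey Veh). Points are libraries and lines are group means; female DRG Veh replicate 1 stands above its group for most genes, and the male paw PRL points of Adipoq, Plin1, Lep, Cidec and Retn lie below every male paw Veh point.

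Most members were higher in paw than in DRG of vehicle mice. The test set 6 Veh paw against 6 Veh DRG libraries, in a fit of all 24 rRNA-depleted libraries. Of the 10 members 8 were higher in paw and none lower, beside 43.2% of 15949 tested genes called higher in paw and 42.3% called lower. Their median log2 difference was 1.06, against 0.02 for all genes tested. Cd36, the fatty acid transporter, differed most, with 131, 129 and 129.9 CPM in female and 148, 138 and 205 CPM in male vehicle paws, against 71, 18.5 and 24.2 CPM in female and 21.6, 18 and 15.8 CPM in male vehicle DRG (log2 difference 2.47, SE 0.26, adjusted p = 2.29e-08). Every paw library lay above every DRG library. The lipases differed less, Lipe by 1.38 (SE 0.21, adjusted p = 4.92e-06) and Pnpla2 by 0.89 (SE 0.09, adjusted p = 1.72e-08), and Pparg by 1.45 (SE 0.18, adjusted p = 2.24e-07). Lep differed by 2.16 (SE 0.50, adjusted p = 0.000376), Plin1 by 1.14, Fabp4 by 0.99 and Adipoq by 0.85 (adjusted p = 0.0398). Cidec (0.43, adjusted p = 0.33) and Retn (0.46, adjusted p = 0.307) did not pass.

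One ganglion library bore on these values. Female DRG Veh replicate 1 had 30.5 CPM of Adipoq, against 4.16 and 8.37 CPM in the other 2 libraries of its group and 4.92 to 6.35 CPM in male vehicle DRG. It also had the highest DRG value of Plin1 (18.5 CPM), Fabp4 (81.7), Cidec (21.5), Lipe (31.3), Pparg (5.28), Pnpla2 (63.7), Cd36 (71) and Retn (10.3 CPM), but not of Lep. Cfd, the fat cell product adipsin, was at 121 CPM there and at 13.4 to 46.6 CPM in the other rRNA-depleted DRG libraries. Without it, Cidec (log2 difference 1.03, adjusted p = 0.0109) and Retn (1.11, adjusted p = 0.00701) were also higher in paw, and Adipoq differed by 1.44 (adjusted p = 0.000315). The Adipoq call was lost without any 1 of 9 other libraries (female paw Veh 1 or 2, male paw Veh 1 or 3, female DRG Veh 2 or 3, or male DRG Veh 1, 2 or 3), with adjusted p of 0.0551 to 0.103. It was also lost when only the Veh groups compared were fitted (log2 difference 0.85, adjusted p = 0.0528).

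In male paws after prolactin, the droplet coat gene Plin1 and the hormone genes Retn and Adipoq fell, Adipoq only marginally, and the other 7 members did not pass the test. Of 10 members 3 fell and none rose, beside 10.1% of 14721 tested genes that fell and 12.3% that rose. Their median log2 change was -0.79, against 0.02 for all genes. The libraries of 5 members (Adipoq, Plin1, Lep, Cidec and Retn) lay wholly lower in PRL than in Veh, beside 25.1% of tested genes.

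Plin1, the droplet coat, had 5.24, 2.47 and 6.08 CPM in male PRL paws, against 15.7, 14.9 and 10.1 CPM in male Veh paws. All 3 PRL values lay below the lowest Veh value, and the change passed the test (log2 change -1.49, SE 0.32, adjusted p = 0.00752 by edgeR's quasi-likelihood F test with Benjamini-Hochberg adjustment). Retn, encoding resistin, had 1.55, 0.792 and 0.868 CPM in male PRL paws, against 4.15, 3.05 and 4.64 CPM in male Veh paws (log2 change -1.81, SE 0.41, adjusted p = 0.00934). These rest on 9 to 18 reads per PRL library and 19 to 55 per Veh library. Adipoq, encoding adiponectin, had 11, 2.91 and 6.37 CPM in male PRL paws, against 19.5, 13.9 and 16.5 CPM in male Veh paws (log2 change -1.23, SE 0.40, adjusted p = 0.0457). Its groups were apart, but the call was marginal. It was lost in 8 of 13 alternatives, among them the fits without male PRL replicates 2 (adjusted p = 0.0897) or 3 (0.128) and without male Veh replicates 1 (0.124), 2 (0.0567) or 3 (0.094), and the fit with the muscle level as a covariate (log2 change -1.11, adjusted p = 0.0666). Plin1 and Retn passed in all 13 alternatives, Plin1 with log2 changes of -1.73 to -1.21 and Retn with -2.22 to -1.61.

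Lep, encoding leptin, had 0.516, 0.44 and 0.482 CPM in male PRL paws, against 1.64, 2.08 and 1.01 CPM in male Veh paws (log2 change -1.58, SE 0.59, adjusted p = 0.0732). The groups did not overlap, but PRL libraries held only 5 to 6 reads, and the value passed only when the 2 groups were fitted alone (adjusted p = 0.0242). Cidec, the droplet fusion factor, had 6.36, 2.73 and 2.22 CPM in male PRL paws, against 9.32, 7.86 and 7.5 CPM in male Veh paws (log2 change -1.04, adjusted p = 0.133; without male PRL replicate 1 -1.69, adjusted p = 0.036). Pparg had 3.87, 5.55 and 8.59 CPM in male PRL paws, against 9.39, 7.05 and 10.5 CPM in male Veh paws (log2 change -0.54, adjusted p = 0.146; without male PRL replicate 3 -0.87, adjusted p = 0.0282). Its highest PRL library overlapped with the Veh range. Lipe, Pnpla2, Fabp4 and Cd36 gave log2 changes of -0.34, 0.07, 0.15 and 0.33, with adjusted p of 0.316 to 0.695. Fabp4 reads per Adipoq read were 5.57 to 15.4 in male PRL paws and 2.25 to 3.79 in male Veh paws, and Cd36 reads per Adipoq read were 16.3 to 59 in male PRL paws and 7.59 to 12.4 in male Veh paws.

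**Figure D2:**
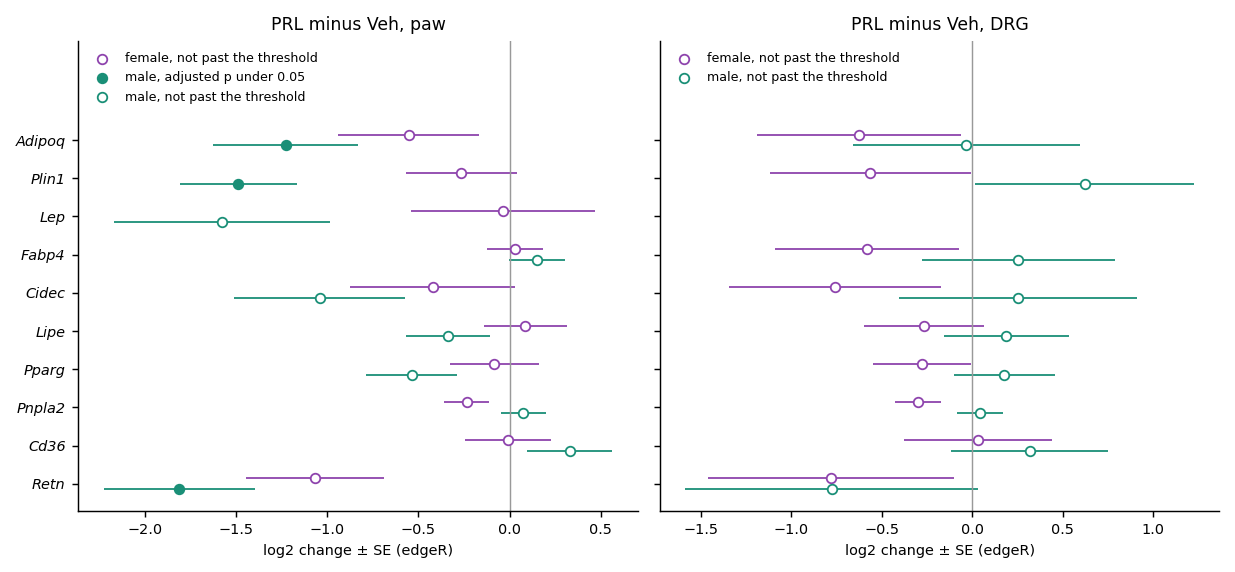
Log2 change of each adipocyte gene, PRL minus Veh (x axes), in paw and DRG, with bars of 1 SE from the edgeR fit; purple is female, green is male, and filled points passed an adjusted p of 0.05. Only Adipoq, Plin1 and Retn in male paw are filled; Lep was not tested in DRG.

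Related lists in the male paw are read against the 10.1% of all tested genes that fell and the 12.3% that rose. Of 20 genes of fatty acid and triglyceride synthesis, 10 fell and none rose, with a median log2 change of -0.44 against 0.02 for all genes. Examples were Fasn, the fatty acid synthase (-0.74, adjusted p = 0.0041), Acaca, which makes its malonyl-CoA substrate (-0.50, adjusted p = 0.00391), Scd2, a desaturase (-0.72, adjusted p = 0.00218), and Insig1, a sterol-regulated inhibitor of SREBP processing (-0.83, adjusted p = 0.00166). Of 17 adipogenic regulators, 5 fell and 1 rose. Among those that fell were Klf4 (-1.16, adjusted p = 0.000725), Cebpd (-0.82, adjusted p = 0.00605) and Klf5 (-0.78, adjusted p = 0.0344), which all act early in fat cell differentiation. Nr1h3, the liver X receptor alpha, rose (1.04, adjusted p = 0.019). Bulk tissue does not show which cells the reads of these regulators came from, and most keratinocyte genes also fell in these paws. Of 14 uptake and trapping genes, 2 rose and none fell, a share near that of all genes. They were Lpl, the lipoprotein lipase (0.77, adjusted p = 0.0105), and Angptl4, its inhibitor (1.38, adjusted p = 0.0113). Of 19 tested genes in the lipolysis and droplet list, Plin3, a ubiquitous droplet coat protein, rose (0.32, adjusted p = 0.0448). Abhd5, the activator of ATGL, fell (-0.46, adjusted p = 0.00896), as did Faf1 (-0.42, adjusted p = 0.0296), whose role at droplets was not examined here.

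Among 15 tested adipocyte markers that are not members, 2 fell and none rose, Lgals12, a galectin of lipid droplets (-0.69, adjusted p = 0.0205), and Cebpa, the regulator of terminal fat cell differentiation (-0.55, adjusted p = 0.0428), a share near that of all genes. The 16 markers of that list summed to 960.1 to 3020 CPM in male PRL paws and 983 to 1616 CPM in male Veh paws, with overlap and a higher mean in PRL. Car3, a carbonic anhydrase of fat that muscle also makes, held most of the sum in the PRL libraries. It had 2600, 633 and 1372 CPM in male PRL paws, against 422, 1173 and 817 CPM in male Veh paws. The higher PRL mean of the sum therefore does not show the direction of the other markers, and no sum without Car3 was taken. Of 14 tested adipokine and receptor genes, 1 fell, the insulin receptor substrate Irs2 (-0.53, adjusted p = 0.0474). Of 9 tested preadipocyte and progenitor genes, 2 rose, Icam1 (1.38, adjusted p = 0.000322) and Cd34 (0.62, adjusted p = 0.0207), both of which other cell types also make. Of 8 tested brown fat genes, 1 rose, Dio2, the thyroid hormone deiodinase (1.40, adjusted p = 0.0266).

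Markers of other cell types moved in the same paws. The 11 keratinocyte genes summed to 47919 to 56780 CPM in male PRL paws and 78888 to 88788 CPM in male Veh paws, with 7 of 11 lower. Sebaceous gland genes summed to 282 to 599.8 CPM in male PRL paws and 705 to 1063 CPM in male Veh paws, with 2 of 11 tested lower. Macrophage genes summed to 1541 to 1745 CPM in male PRL paws and 963 to 1412 CPM in male Veh paws, with 9 of 12 higher and 2 lower. These sums of keratinocyte, sebaceous and macrophage genes did not overlap between the groups. Fibroblast genes summed to 24643 to 36487 CPM in male PRL paws and 13056 to 19764 CPM in male Veh paws, with 6 of 12 higher. None of the genes of these 4 lists was at 0 throughout either male paw group. Skeletal muscle genes summed to 64769 to 152259 CPM in male PRL paws and 18961 to 96583 CPM in male Veh paws, with none of 18 called. Of the remaining lists, 1 of 12 endothelium genes rose, 1 of 10 tested glial genes fell, and none of 6 tested sensory neuron or 3 tested erythrocyte genes was called. With the muscle level as a covariate, Plin1 (log2 change -1.39, adjusted p = 0.00875) and Retn (-1.61, adjusted p = 0.0114) still fell. The part of the other lists in these results was not tested. Male Veh replicate 2 had the lowest share of reads in genes (13.6%), and without it Plin1 gave -1.43 (adjusted p = 0.0209) and Retn -1.96 (adjusted p = 0.014).

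In female paws no member passed the test, beside 7.55% of 14721 genes called in either direction. DESeq2 called none either, and 1 member had an unadjusted p under 0.05. That member was Retn, with 2.27, 0.981 and 2.92 CPM in female PRL paws, against 5.57, 4.71 and 2.84 CPM in female Veh paws (log2 change -1.07, SE 0.38, adjusted p = 0.125). One PRL library lay above the lowest Veh library. With the muscle level as a covariate Retn passed (-1.34, adjusted p = 0.0374). Adipoq had 10.4, 9.61 and 12.2 CPM in female PRL paws, against 16.8, 22 and 8.99 CPM in female Veh paws (log2 change -0.55, SE 0.39, adjusted p = 0.471). Plin1 had 11.7, 7.45 and 10.3 CPM in female PRL paws, against 13.2, 14.5 and 8.23 CPM in female Veh paws (log2 change -0.26, SE 0.30, adjusted p = 0.681). For both genes the third Veh library lay within or below the PRL range. Only Pnpla2 had groups apart, with 74.4, 70.9 and 69.8 CPM in female PRL paws, against 92.5, 77.5 and 86.6 CPM in female Veh paws (log2 change -0.23, adjusted p = 0.316); 11.3% of tested genes lay wholly lower in PRL. The remaining members gave log2 changes between -0.42 (Cidec) and 0.09 (Lipe). Of the related lists, 1 of 17 adipogenic regulators fell, Cebpd (-1.14, adjusted p = 0.00195), and 1 rose, Ebf1, which acts in fat cell commitment (0.63, adjusted p = 0.00355). Cd34 rose among 9 tested progenitor genes (0.61, adjusted p = 0.0453), and no gene of the synthesis, uptake, lipolysis, adipokine, brown fat or other adipocyte marker lists was called. Synthesis genes nevertheless summed to 4429 to 4510 CPM in female PRL paws and 5003 to 5983 CPM in female Veh paws. Lipolysis and droplet genes summed to 1321 to 1408 CPM in female PRL paws and 1548 to 1614 CPM in female Veh paws. Sums of the uptake, adipokine, brown fat and other adipocyte marker lists overlapped between these groups. Macrophage genes summed to 1362 to 1970 CPM in female PRL paws and 729 to 961 CPM in female Veh paws, with 10 of 12 higher, and fibroblast genes to 21585 to 29382 CPM in female PRL paws and 8545 to 11200 CPM in female Veh paws, with 6 of 12 higher. Their part in the member values was not tested.

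Averaged over the sexes, Retn (log2 change -1.44, SE 0.28, adjusted p = 0.00305), Plin1 (-0.88, SE 0.22, adjusted p = 0.0134) and Adipoq (-0.89, SE 0.28, adjusted p = 0.0356) fell in paw, beside 10% of genes called lower and 14.9% called higher. Adipoq lost its call without any 1 of 7 libraries, female PRL 1 or 2, female Veh 1 or 2, male PRL 3 and male Veh 1 or 3, with adjusted p of 0.0651 to 0.093. The sex difference itself passed for no member by edgeR or DESeq2. Over all genes 0.00679% passed, 1 gene, while 1924 had an unadjusted p under 0.05. Plin1 came nearest, its change being higher in females than in males by 1.22 on the log2 scale (SE 0.44, unadjusted p = 0.0176, adjusted p = 0.301). Retn gave 0.74 (SE 0.56, adjusted p = 0.556) and Adipoq 0.67 (SE 0.55, adjusted p = 0.59). Between vehicle paws, female minus male differences were -0.33 to 0.14 and passed for no member (0.109% of genes called).

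In the ganglion, prolactin went with no called change of a member in either sex. Lep was filtered out there for low counts, with 3 to 12 reads in female PRL and 2 to 6 in female Veh libraries, and 1 to 6 in male PRL and 0 to 6 in male Veh libraries. None of the other 9 passed in females (0.653% of 14705 genes called) or males (0.517%), in the sex average (3.6%) or in the sex difference (0% of genes, with 537 at an unadjusted p under 0.05 and 2 called by DESeq2), and DESeq2 called no member. Of the 9, 1 had an unadjusted p under 0.05 in females and none in males. Adipoq had 5.5, 7.11 and 15.2 CPM in female PRL DRG, against 30.5, 4.16 and 8.37 CPM in female Veh DRG (log2 change -0.63, SE 0.56, adjusted p = 0.681). It had 6.69, 3.96 and 6.26 CPM in male PRL DRG, against 6.05, 6.35 and 4.92 CPM in male Veh DRG (log2 change -0.03, SE 0.63, adjusted p = 0.989). Groups overlapped for all 10 members in both sexes, whereas 15.5% of tested genes in females and 19.6% in males had groups apart. In females 8 of 9 changes were below 0, but this rested on Veh replicate 1. Without it the values were 0.58 for Adipoq, 0.48 for Plin1, 0.52 for Fabp4, 0.48 for Cidec, 0.36 for Lipe, 0.86 for Cd36, 0.56 for Retn, 0.01 for Pparg and -0.11 for Pnpla2, none past the test (adjusted p of 0.165 to 0.987). Pnpla2, the member with an unadjusted p under 0.05 in the full fit (log2 change -0.30, adjusted p = 0.366), was the only one of the 9 below 0 without that library. The same library set the vehicle difference between the sexes, which was 1.31 for Adipoq, 1.51 for Cidec and 1.03 for Cd36, female minus male, with no member called (0.0544% of genes called), and 0.10, 0.27 and 0.20 without it.

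Related genes in DRG gave few calls, beside 0.653% of all tested genes called in females and 0.517% in males. Klf15, a glucocorticoid-responsive adipogenic regulator, fell in females (-0.94, adjusted p = 0.0078) and in males (-0.87, adjusted p = 0.0174), the only one of 17 regulators called in each sex. Of 20 synthesis genes 1 rose in each sex, Elovl6, a fatty acid elongase, in females (0.44, adjusted p = 0.0341) and Insig1 in males (0.48, adjusted p = 0.0197). Irs1 rose in females (0.60, adjusted p = 0.0344), 1 of 15 adipokine and receptor genes. No gene of the uptake, lipolysis, progenitor, brown fat or other adipocyte marker lists was called in either sex. Fibroblast genes rose in the same ganglia, 5 of 12 in each sex, and summed to 7951 to 10434 CPM in female PRL DRG and 5233 to 6860 CPM in female Veh DRG, and to 7137 to 7862 CPM in male PRL DRG and 4483 to 5947 CPM in male Veh DRG. Schwann and satellite glia genes summed to 23327 to 30716 CPM in female PRL DRG and 18379 to 20276 CPM in female Veh DRG, and to 25069 to 28171 CPM in male PRL DRG and 15800 to 22128 CPM in male Veh DRG, with 2 of 12 higher in females and 1 of 12 in males. Neither set of sums overlapped between PRL and Veh, and their part in the member values was not tested.

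Several members followed Adipoq across the ganglion libraries. Pearson's r of log2 CPM with Adipoq, over 12 rRNA-depleted DRG libraries, was 0.98 for Cidec, 0.94 for Fabp4, 0.92 for Lipe, 0.90 for Plin1 and 0.79 for Retn, and lower for Pnpla2 (0.70), Cd36 (0.67) and Pparg (0.60). These libraries share the depletion protocol, and 1 library holds the extreme value. Over the other 11 libraries r was 0.94 for Cidec, 0.85 for Fabp4, 0.77 for Lipe, 0.76 for Plin1, 0.50 for Retn, 0.28 for Cd36 and 0.05 for both Pnpla2 and Pparg. For Retn, Cd36, Pnpla2 and Pparg the 12-library value therefore rested largely on female DRG Veh replicate 1. Cidec reads per Adipoq read stayed at 0.554 to 0.817 in all 12 DRG libraries, and Fabp4 reads per Adipoq read at 2.3 to 4.45. Outside the members, the 8 genes most like Adipoq among 14704 were Cfd (0.954), Car5b (0.913), H2-D1 (0.909), Cdo1 (0.906), H2-K1 (0.898), Mgst1 (0.890), Ces1d (0.886) and Cxcl16 (0.885). These values include female DRG Veh replicate 1. Over the other 11 libraries r was 0.87 for Cfd, and it was not taken for the rest, whose likeness may rest on that library.

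In paw, over 12 libraries, r with Adipoq was 0.90 for Plin1, 0.86 for Cidec, 0.85 for Retn, 0.70 for Lep, 0.59 for Lipe and 0.45 for Pparg, but 0.17 for Pnpla2, 0.14 for Fabp4 and -0.34 for Cd36. The 8 most like genes outside the members were Tshr (0.936), Casc1 (0.930), Tmem231 (0.915), Mark1 (0.906), Cdo1 (0.904), Klb (0.901), Wdr45 (0.899) and Crb3 (0.898). Since PRL and Veh groups differ in these genes, r was also taken over deviations from group means. It was then 0.77 for Plin1, 0.77 for Cidec, 0.66 for Retn, 0.57 for Fabp4, 0.56 for Pnpla2, 0.51 for Lipe, 0.45 for Lep, -0.01 for Cd36 and -0.03 for Pparg. By that measure the 8 most like genes outside the members were Cdo1 (0.922), Rasl11a (0.901), Tshr (0.898), Cfd (0.892), Syt8 (0.879), Klb (0.878), Mark1 (0.878) and Tmem231 (0.877). Casc1, Wdr45 and Crb3 were not among them. These are descriptions over few libraries. Levels in paw ranged most for Adipoq (2.91 to 22 CPM, 7.56-fold) and Retn (7.03-fold) and least for Fabp4 (43.9 to 61.3 CPM, 1.4-fold) and Pnpla2 (1.45-fold).

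**Figure D3:**
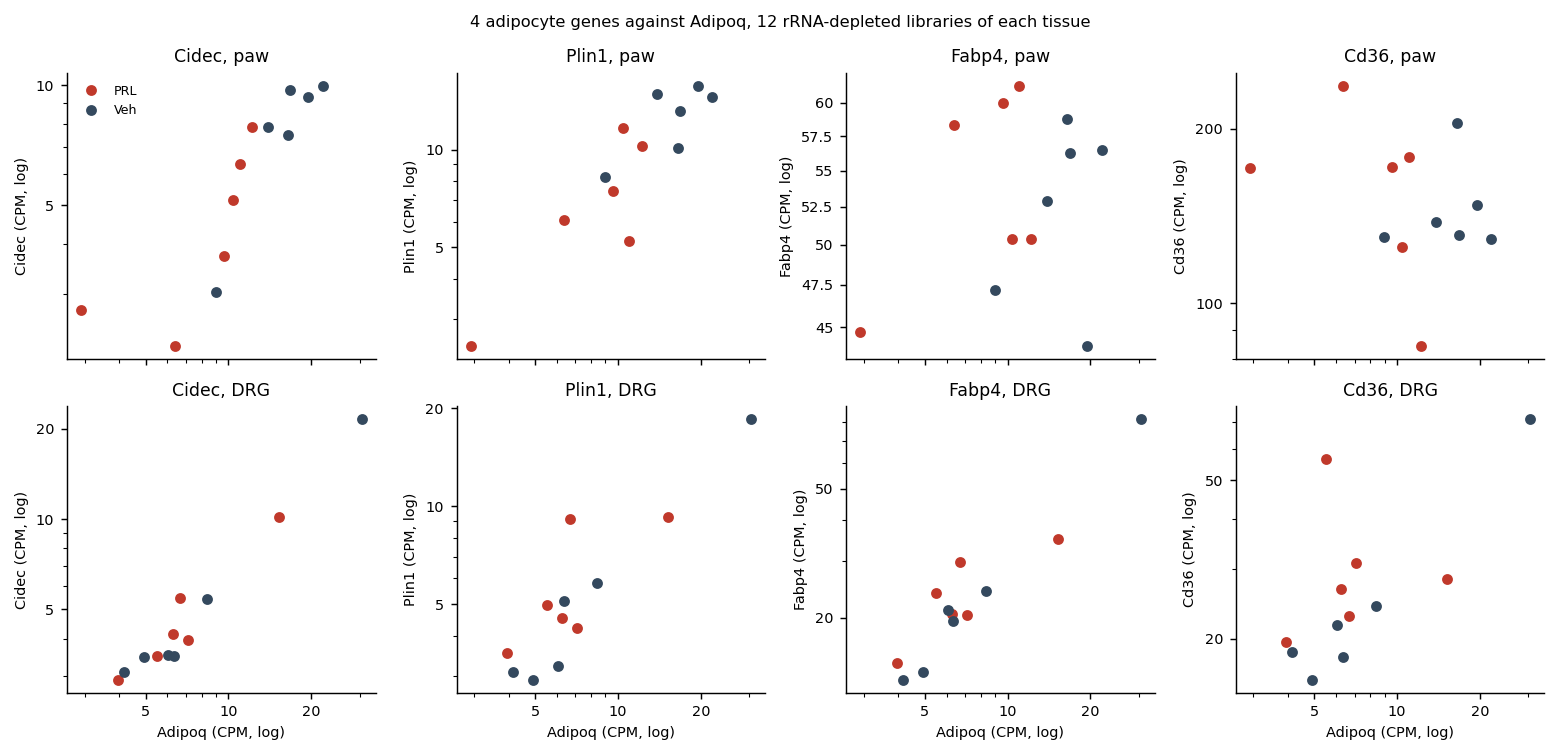
CPM of Cidec, Plin1, Fabp4 and Cd36 (y axes, log) against Adipoq (x axes, log) in 12 rRNA-depleted libraries each of paw (top) and DRG (bottom); points are libraries, red PRL and grey Veh. In DRG all 4 genes are highest in the library with 30.5 CPM of Adipoq; in paw Fabp4 and Cd36 show no such alignment.

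The PRL_Sh libraries differ from the female PRL libraries in the Sh label and in the kit, and the 2 cannot be told apart. The PRL libraries here are those also compared with Veh, and the Veh libraries serve both the tissue and the prolactin comparisons, so these results are not independent of each other. In paw, 3 members were lower and 1 higher in PRL_Sh, beside 29% of 14800 genes lower and 29.4% higher. Plin1 had 3.65, 2.32 and 4.9 CPM in PRL_Sh paws, against 11.7, 7.45 and 10.3 CPM in PRL paws (log2 difference -1.49, SE 0.32, adjusted p = 0.00586). Lep had 0.756, 0.71 and 0.499 CPM in PRL_Sh paws, against 1.05, 1.18 and 1.94 CPM in PRL paws (log2 difference -1.14, adjusted p = 0.0271). Adipoq had 5.69, 4.12 and 7.99 CPM in PRL_Sh paws, against 10.4, 9.61 and 12.2 CPM in PRL paws (log2 difference -0.91, adjusted p = 0.0246). Pnpla2 had 187, 123 and 189 CPM in PRL_Sh paws, against 74.4, 70.9 and 69.8 CPM in PRL paws (log2 difference 1.16, SE 0.19, adjusted p = 0.00186). The groups of these 4 genes did not overlap, beside 29.5% of tested genes wholly lower and 36.5% wholly higher in PRL_Sh. The calls of Adipoq (without PRL 1 or 3 or PRL_Sh 1, adjusted p of 0.0514 to 0.0723) and Lep (DESeq2, and without PRL 3 or any PRL_Sh library, adjusted p of 0.0541 to 0.108) were lost in some alternatives. Fabp4 varied from 41.2 to 109.9 CPM in PRL_Sh paws, against 50.4 to 60 CPM in PRL paws, and did not pass (log2 difference 0.43, adjusted p = 0.311; 0.70, adjusted p = 0.0312 without PRL_Sh 2). Macrophage genes summed to 391 to 505 CPM in PRL_Sh paws and 1362 to 1970 CPM in PRL paws, with 10 of 12 lower, and fibroblast genes to 2745 to 4069 CPM in PRL_Sh paws and 21585 to 29382 CPM in PRL paws, with 10 of 12 lower. Other fat lists went both ways in PRL_Sh paws. Preadipocyte and progenitor genes summed to 592 to 682 CPM in PRL_Sh paws and 1112 to 1183 CPM in PRL paws. Sums of synthesis genes and of adipogenic regulators overlapped between the groups, and those of uptake and lipolysis genes were higher in PRL_Sh. The 16 other adipocyte markers summed to 2576 to 6109 CPM in PRL_Sh paws and 663 to 1281 CPM in PRL paws, with 5 higher and 4 lower. Car3 held most of that sum in the PRL_Sh libraries, at 3143, 1930 and 5446 CPM in PRL_Sh paws, against 311, 874 and 133 CPM in PRL paws, and skeletal muscle genes summed to 36837 to 70486 CPM in PRL_Sh paws and 2750 to 59163 CPM in PRL paws. The 10 brown fat genes summed to 261 to 354 CPM in PRL_Sh paws and 64 to 122 CPM in PRL paws. Of 9 tested, 6 were higher, among them Cidea, a droplet protein (1.88, adjusted p = 8.87e-05), and Elovl3, a fatty acid elongase (1.39, adjusted p = 0.00011). Cox8b had the largest difference (3.25, adjusted p = 0.0104). The part of muscle in the brown fat sum was not tested. Dio2 alone was lower (-2.29, adjusted p = 0.00175). Ucp1, the uncoupling protein of brown fat, did not pass (1.55, adjusted p = 0.0614). Sebaceous gland genes also had higher sums, 959 to 1097 CPM in PRL_Sh paws and 559 to 742 CPM in PRL paws, although Soat1 was lower (-1.83, adjusted p = 0.00107). The part of these markers in the member differences was not tested.

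In DRG the PRL_Sh shift covered nearly all members. Of 9 tested, 7 were lower and 1 higher in PRL_Sh, beside 32.3% of 14985 genes lower and 29.3% higher, with a median log2 difference of -1.63 against 0.00 for all genes. Plin1 had 0.69, 1.75 and 0.96 CPM in PRL_Sh DRG, against 4.97, 4.23 and 9.29 CPM in PRL DRG (log2 difference -2.45, SE 0.42, adjusted p = 0.0014). Fabp4 had 6.07, 12.8 and 6.75 CPM in PRL_Sh DRG, against 23.8, 20.4 and 34.9 CPM in PRL DRG (log2 difference -1.63, SE 0.31, adjusted p = 0.00251). Cd36 had 9.01, 11.1 and 12.1 CPM in PRL_Sh DRG, against 56.6, 31 and 28.2 CPM in PRL DRG (log2 difference -1.85, SE 0.26, adjusted p = 0.000524). None of these groups overlapped. Of all 10 members, the untested Lep included, 7 lay wholly lower and 1 wholly higher in PRL_Sh, and Lipe and Retn overlapped, beside 34.5% of tested genes wholly lower and 33.5% wholly higher. Cidec (-1.87, adjusted p = 0.00968), Adipoq (-1.67, adjusted p = 0.0088), Pparg (-0.83, adjusted p = 0.0209) and Lipe (-0.46, adjusted p = 0.0488) were also lower, and Pnpla2 was higher (0.43, adjusted p = 0.0277). The call of Pparg was lost without PRL 1 or PRL_Sh 1 or 3, that of Lipe without PRL 1 or 3 or PRL_Sh 1 or 3, and that of Pnpla2 without PRL 1 or 2 or PRL_Sh 3 (adjusted p of 0.0573 to 0.18). The Lipe call was also lost with RLE scaling (adjusted p = 0.0561) and with no filter on low counts (adjusted p = 0.0701). Retn gave -1.47 (adjusted p = 0.0883; 0.0381 with DESeq2). Lep had 1 to 3 reads per PRL_Sh library. Of 16 other adipocyte markers 8 were lower and 1 higher. Skeletal muscle genes summed to 145 to 1638 CPM in PRL_Sh DRG and 663 to 28896 CPM in PRL DRG, and fibroblast genes to 4838 to 5781 CPM in PRL_Sh DRG and 7951 to 10434 CPM in PRL DRG. The part of either in the shift was not tested.

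**Figure D4:**
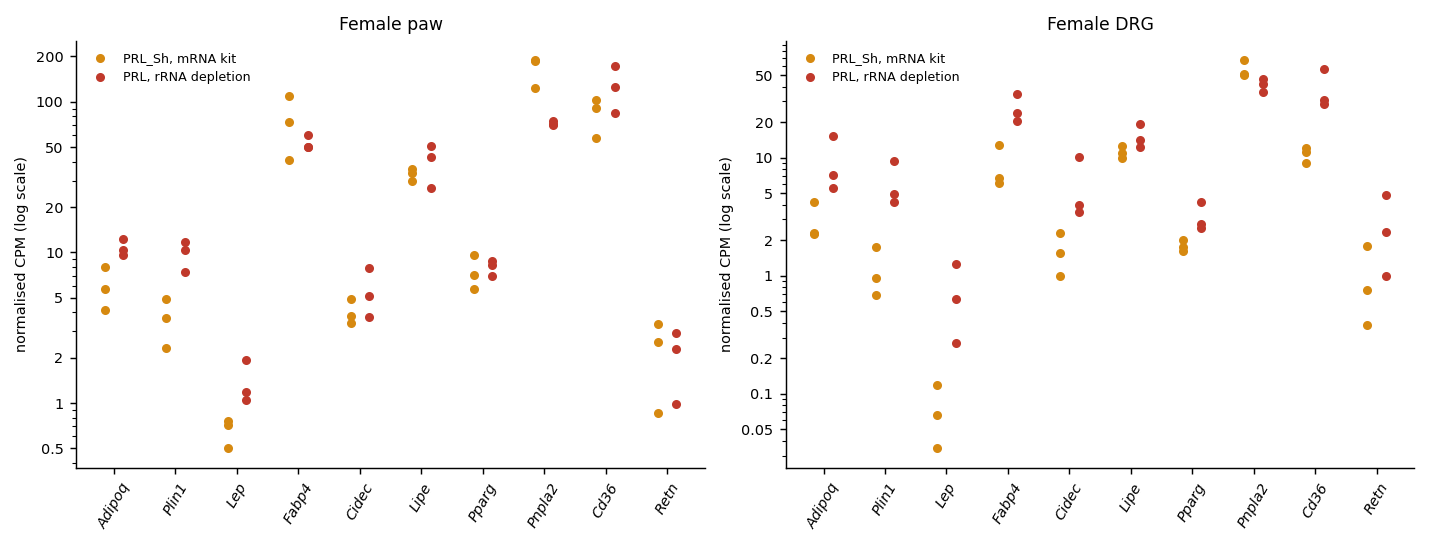
Normalised CPM (y axes, log) of each adipocyte gene (x axes) in 3 PRL_Sh libraries (orange, mRNA kit, left of each pair) and 3 PRL libraries (red, rRNA depletion) of female paw and DRG. Orange points lie below red for Plin1 in both tissues and above red for Pnpla2 in both.

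Within the mRNA kit, all 10 members again had higher estimates in paw than in DRG and 8 passed, beside 39.9% of 15735 genes called higher and 40.2% called lower. Fabp4 had 73.1, 41.2 and 109.9 CPM in PRL_Sh paw, against 6.07, 12.8 and 6.75 CPM in PRL_Sh DRG (log2 difference 2.90, SE 0.42, adjusted p = 0.000364). Lep (2.88, adjusted p = 0.000692), Cd36 (2.73, adjusted p = 1.49e-05), Pparg (1.83, adjusted p = 0.00021), Plin1 (1.46, adjusted p = 0.0119), Pnpla2 (1.34), Lipe (1.34) and Cidec (1.09, adjusted p = 0.0152; 0.94, adjusted p = 0.056 without paw PRL_Sh 1) were higher as well. Adipoq (0.80, adjusted p = 0.0605) and Retn (0.98, adjusted p = 0.181) did not pass; without DRG PRL_Sh replicate 2 they gave 1.13 (adjusted p = 0.0199) and 1.69 (adjusted p = 0.0452). Lipe lies on the opposite strand of 4732471J01Rik, which the count tables also hold, and Pparg opposite Gm44079; the strand setting of the counting is not given in the sources used here, so reads of such partners may not be separable.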

How the data were processed

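The authors deposited raw read counts per gene, with 22609 genes and 5 summary lines per library, as the file values show. Per the labels' protocols, 500 ng of total RNA went into stranded KAPA RiboErase libraries or, for PRL_Sh, TruSeq mRNA libraries, read as single 50 nt reads. The submitters' processing notes name bcl2fastq, TopHat2, HTSeq and mm9; no source used here gives versions or HTSeq settings. Summary lines were left out of library sizes. The test on these counts was that of edgeR 4.0.16 under R 4.3.3 (filterByExpr, TMM scaling, quasi-likelihood F test, Benjamini-Hochberg over all genes tested, threshold 0.05). The 12 rRNA-depleted libraries of a tissue were fitted together with a mean per group, paw and DRG Veh in one fit of 24 libraries, and PRL_Sh with PRL in fits of 6. Levels are CPM after TMM over 30 libraries, and correlations use log2 CPM with a prior count of 2. Lengths are of the longest principal protein-coding transcript of GENCODE M21 (GRCm38), not of mm9. Each library was left out in turn, and other settings tried were a muscle covariate, a replicate block, only the groups compared, 1 CPM in 3 libraries or no filter at all, RLE scaling and DESeq2 1.42.0. The fitting was tested on simulated data with a preset spread between libraries. That spread was not estimated from these libraries, so the simulation does not give the error rates of these results. The members and the 18 gene lists were chosen with earlier results of these data known. Text named all members, up to 4 genes per related list by p, and the 8 genes most like Adipoq per tissue, in paw also over deviations from group means. In no comparison did all same-numbered replicates correlate above 0.1, and numbers were not treated as pairs in the main fits.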

Additional observations from a re-analysis of the deposited data

How the results depend on the processing

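Of 1923 member values under the alternatives, no value past the threshold in either fit changed sign. The sign differed in 93 values past the threshold in neither, 48 calls were lost and 20 gained. The count of members called moved by more than 1.5 times only in female paw with the muscle covariate (1, against 0), and among fits leaving out 1 library in the PRL_Sh against PRL comparisons (2 to 5 in paw and 5 to 9 in DRG). Counts over all genes moved more. With DESeq2 they were 205 in female DRG, 308 in male DRG, 837 in the DRG sex average, 161 in the paw sex difference, 2 in the DRG sex difference and 111 between vehicle paws of the sexes. With the muscle covariate they were 36 in female DRG, 42 in male DRG, 189 in the DRG sex average, 9 in the paw sex difference and 55 between vehicle paws. With only the groups compared they were 597 in female paw and 34 in female DRG. Leaving out 1 library each gave 579 to 1505 in female paw, 2017 to 2792 in male paw, 20 to 171 in female DRG, 25 to 73 in male DRG, 271 to 992 in the DRG sex average, 0 to 6 in the paw sex difference and 5 to 10 between vehicle paws. The cause of these moves was not tested.

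With the replicate block, 3 member calls were lost, Adipoq in male paw (log2 change -1.27, adjusted p = 0.0564), Lep in PRL_Sh against PRL paw (-1.11, adjusted p = 0.0894) and Lipe in PRL_Sh against PRL DRG (-0.45, adjusted p = 0.0919). The block also moved the counts over all genes to 0 for the paw sex difference and 8 between vehicle paws. In no comparison did all same-numbered pairs correlate above 0.1. Single pairs reached 0.44 (replicate 3 of female PRL paw and DRG) and 0.34 (replicate 3 of female PRL_Sh and PRL DRG). The lowest was -0.58, in female PRL and Veh paw. Whether same-numbered libraries shared an animal or a batch was not tested. Depth limits Lep, with 0 to 12 reads in each rRNA-depleted DRG library, and Retn, with 8 to 107.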

Other observations

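Ucp1, the uncoupling protein of brown fat, was uneven in DRG. It had 8.47, 0.209 and 2.21 CPM in male PRL DRG, against 0.23, 0.227 and 0 CPM in male Veh DRG, on 76, 2 and 23 reads against 3, 2 and 0. It had 0.106, 0.45 and 2.24 CPM in female PRL DRG, against 1.54, 0.408 and 0.788 CPM in female Veh DRG. Neither sex passed the test (male log2 change 4.41, adjusted p = 0.152; female 0.03, adjusted p = 0.993). Lgals12, a galectin of fat cell lipid droplets, had 3.87, 2.55 and 3.57 CPM in male PRL paws, against 5.48, 5.77 and 5.73 CPM in male Veh paws, and 4.19, 3.82 and 5.05 CPM in female PRL paws, against 6.12, 6.01 and 6.24 CPM in female Veh paws. The groups were apart in both sexes, beside 25.1% of tested genes wholly lower in PRL in male paws and 11.3% in female paws. Lgals12 did not pass in female paws alone. The sex-averaged change passed (log2 change -0.58, adjusted p = 0.00678), beside 10% of genes called lower. Most of the 16 other adipocyte markers were not called in male paws.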
